A study of Mus musculus with 2 samples.

Results

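The Scx-positive cells of the calvarial defect were 253 of the 17129 cells kept from 2 single-cell RNA-seq libraries, 51 in the GA library and 202 in the control library. They were chosen by counted values alone, without clustering. A cell was a member when collagen transcripts (Col1a1, Col1a2 and Col3a1) made up at least 1% of its unique molecular identifiers (UMIs, counted mRNA molecules), when it held at least 2 UMIs of Scx and when it held at least 2 UMIs of the mesenchymal genes Pdgfra and Prrx1 together. The remaining limits were S100a8 and S100a9 below 1%, Bglap and Bglap2 below 0.5%, Cd34 below 0.02% and Eln below 0.05% of UMIs, at most 5 UMIs of Ptprc and Csf1r, and fewer than 10 UMIs of Mki67, Top2a and Ube2c. These genes describe the members and support nothing below.

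The tissue was the frontal bone and defect of C57BL/6 mice (C57BL/6J in the study's text), male and 2 months old, taken 7 days after a circular defect was made. The GA group received gambogic amide, a small molecule agonist of the receptor TrkA, by intraperitoneal injection at 1.2 mg/kg in 100 µL of 10% DMSO, as the labels give it. The control group received 100 µL of 10% DMSO by the same route, and in both groups daily injection began the day before injury and went on for 1 week. The dose and the length of treatment differ between the labels and the study's text, and the labels' values are used here. Each library pooled 5 mice and neither condition had a second library, so differences between GA and control compare those pools and have no replicate check. Every interval given here is at 95% and covers counting error only.

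Scx encodes scleraxis, a basic helix-loop-helix transcription factor of tendon and ligament progenitors that is also present in cells at the sites where tendon joins bone. Progenitors that carry Scx together with Sox9 contribute to tendon and cartilage in the embryo, and Runx2 and Sp7 are the factors that lead mesenchymal cells to the osteoblast. Clec11a, the second gene that the study used to mark its multilineage progenitors, encodes osteolectin, a secreted protein that promotes bone formation by skeletal progenitors. In the mouse mm10 assembly Scx lies at chr15:76457452-76459458 on the plus strand, inside the span of Bop1 on the opposite strand, and Clec11a lies at chr7:44302687-44306902.

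The members were deeply counted cells. A GA member held a median of 57230 UMIs and 6958 genes, and a control member held 59117.5 UMIs and 7042 genes. The collagen share ran from 3.67% through a median of 7.27% to 13.2% in GA and from 2.04% through 6.22% to 15.1% in control. Immune transcripts (Ptprc and Csf1r) were at a median of 0 UMIs and reached at most 3 in both libraries, and mitochondrial transcripts had medians of 3.37% and 3.71%. No member of either library was thus close to the limits on collagen or on immune transcripts, while the highest control members held 9 UMIs of the dividing-cell genes, 0.0491% of Eln and 0.0198% of Cd34, just inside those limits.

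Among cells that met every limit other than that on Scx (304 GA and 753 control cells), Scx was sparse and its distribution had a long upper end. In GA 215 cells held no UMI of Scx, 38 held 1, 20 held 2, 10 held 3 or 4 and 21 held 5 or more, up to 45. In control 464 cells held none, 87 held 1, 43 held 2, 57 held 3 or 4 and 102 held 5 or more, up to 51. The threshold therefore cut through a continuous range, with 38 and 87 cells just outside it and 20 and 43 just inside. The member median was 3 UMIs in GA and 5 in control. Summed over members, Scx stood at 90.05 counts per 1000000 UMIs (CPM) in GA and 116 CPM in control. The cells with no UMI of Scx, called Scx-zero cells here, were less deeply counted than the members, with medians of 46404 UMIs in GA and 42557.5 in control; a cell with none may hold Scx below detection.

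Members were a smaller share of the GA library than of the control library. They were 0.564% of all kept GA cells (exact Clopper-Pearson interval 0.421 to 0.741) and 2.50% of kept control cells (2.17 to 2.86), a ratio of 0.226 (0.167 to 0.307). The mesenchymal gate as a whole held 940 GA and 1912 control cells, which were 10.4% and 23.6% of the kept cells. Within that gate the members were 5.43% (4.07 to 7.07) in GA and 10.6% (9.22 to 12.0) in control, a ratio of 0.514 (0.382 to 0.691). Among cells under every limit but that on Scx they were 16.8% (12.8 to 21.5) and 26.8% (23.7 to 30.1), a ratio of 0.625 (0.474 to 0.825). Called on at least 1 UMI of Scx, the last ratio was 0.763 (0.627 to 0.929), with 89 GA and 289 control cells. With each cell thinned to 10000 UMIs and called in the same way it was 0.747 (0.543 to 1.03), with 42 GA and 139 control cells. The lower threshold thus moved the ratio toward 1, and equal depth at that threshold left it close, with a wider interval that includes 1 at the smaller number of cells. With 1 library a condition, the share of a pool cannot be told apart from the treatment.

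**Figure D1:**
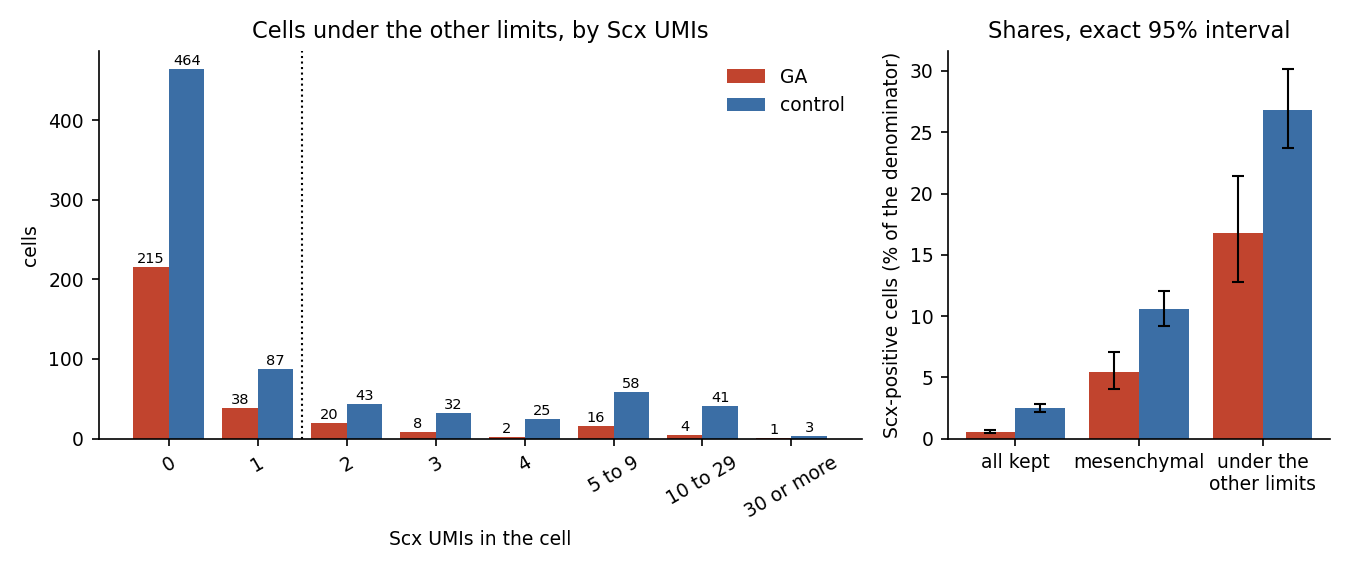
Left, the number of cells (vertical axis) with each count of Scx UMIs (horizontal axis) among cells that met every other limit, for the GA and control libraries; right, the share of members in percent of kept, mesenchymal and similar cells, with exact 95% intervals for counting error. The GA shares of 0.564%, 5.43% and 16.8% lie below the control shares of 2.50%, 10.6% and 26.8%.

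Levels in the other mesenchymal gates were set beside the members to check the name given to these cells. The gates were cells with 1 UMI of Scx, Scx-zero cells, cells with Sp7 (the osteoblast factor osterix, at least 2 UMIs) and under 2 UMIs of Scx, and cells high in Bglap, Cd34, Eln or the dividing-cell genes. Clec11a was at 231 CPM in GA members and 169 CPM in control members. It was at 210 and 204 CPM in cells with 1 UMI of Scx, at 195 and 198 CPM in Eln cells and at 295 and 410 CPM in Sp7 cells. Cd34 cells held only 29.7 and 33.0 CPM of Clec11a and macrophages 2.0 and 4.7 CPM. Clec11a thus separated the members from Cd34 cells and from macrophages, but it was higher in Sp7 cells and no higher in control members than in control Eln cells. Because the second marker did not set them apart, they are called Scx-positive cells below.

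Runx2, the master transcription factor of the osteoblast lineage, was at 518 CPM in GA members and 553 CPM in control members, below the 902 and 903 CPM of Sp7 cells. Sp7 was at 11.0 and 7.0 CPM, against 121 and 85.7 CPM in the gate it defined. Osteocalcin (Bglap), limited by the rule, was at 4.1 and 4.9 CPM. Tenomodulin (Tnmd), a membrane glycoprotein of mature tendon cells, was at 101 and 129 CPM, close to the 90.6 and 96.4 CPM of Scx-zero cells. Ly6a, the stem cell antigen Sca-1, was at 167 and 46.2 CPM, far below the 1980 and 1342 CPM of Cd34 cells. In both libraries the members thus held Runx2 transcripts with little Sp7, and their summed Tnmd was within 2-fold of that in Scx-zero cells. Thinned to 10000 UMIs, 37.3% of GA members (24.1 to 51.9) held Tnmd, against 28.6% of GA Scx-zero cells (22.6 to 35.2). In control the shares were 40.1% (33.3 to 47.2) and 28.3% (24.2 to 32.6), without overlap.

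**Figure D2:**
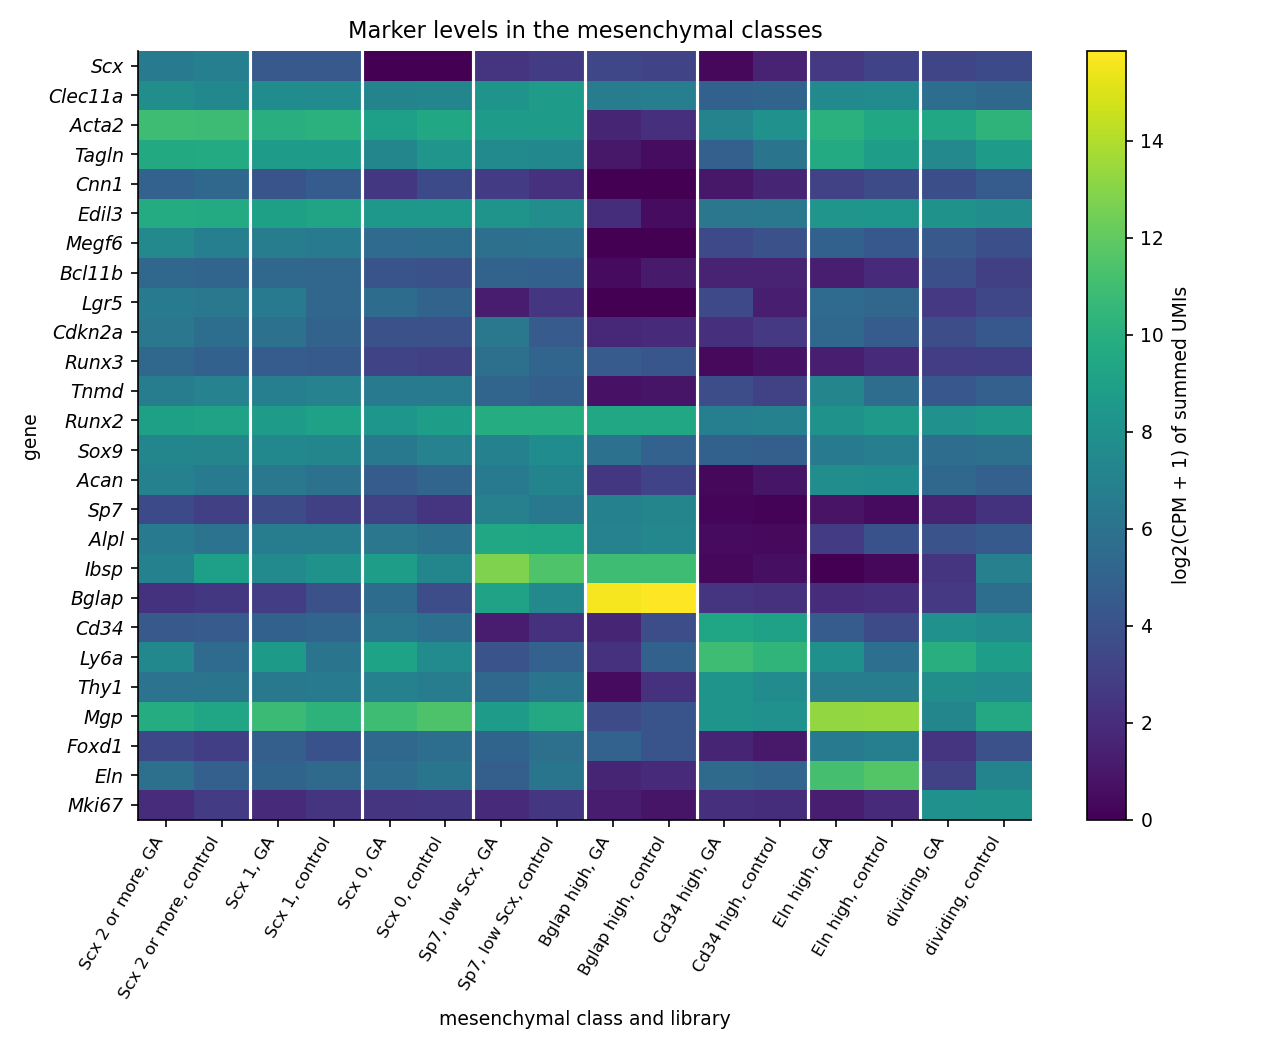
Heat map of 26 genes (rows) in 8 mesenchymal gates of each library (columns), as log2 of the summed CPM plus 1. The members are high in Acta2 and Tagln, as are the GA Eln cells, hold intermediate Runx2 and low Sp7, and are low in Ly6a and Mgp beside the Cd34 and Eln gates.

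The contrast with the Scx-zero cells of the same library was computed for 10428 genes with at least 200 UMIs in the cells compared. It divides cells by the same counts of Scx as the rule and is given as a description. Past 2-fold higher in both libraries were 82 genes (0.786%), and past 2-fold lower in both were 393 genes (3.77%). Over all genes tested, the log2 ratio to Scx-zero cells had a median of -0.05 in GA and -0.01 in control. Scx and the other genes of the rule are not counted below as results.

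Genes of the contractile apparatus were higher in the members. In adult tissue these genes mark smooth muscle and, in wounds, the myofibroblast, a fibroblast that builds actin stress fibres and pulls on its matrix. Of 10 genes on the contractile list, 8 reached 200 UMIs and 6 of them (Acta2, Tagln, Myl9, Cnn1, Actg2 and Tpm2) were past 2-fold higher in both libraries. The list median was 1.85 in GA and 1.25 in control on the log2 scale, and all 8 were above 0 in both. The summed level of the list was 6133 CPM in GA members against 2464 CPM in GA Scx-zero cells, and 6341 against 3226 CPM in control. The pericyte markers, which could accompany contractile genes, were lower: of 6 tested, Rgs5, Abcc9 and Kcnj8 were past 2-fold lower and none higher, and their summed level was 185 against 224 CPM in GA and 103 against 166 CPM in control. The defining pericyte marker Higd1b was at 0 UMIs in the members of both libraries.

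Acta2, which encodes smooth muscle actin and lies at chr19:34241090-34255590, was counted in 98.0% of GA members and 97.5% of control members. Per cell it ran from 0 through a median of 865 CPM to 11902 CPM in GA and from 0 through 1235 to 8794 CPM in control. Its summed level was 1913 CPM against 487 CPM in the GA Scx-zero cells, a log2 ratio of 1.97 (1.92 to 2.03). In control it was 1872 against 710 CPM, a log2 ratio of 1.40 (1.37 to 1.43). Acta2 was thus found in nearly every member, against 72.6% of GA and 73.1% of control Scx-zero cells. Its level differed widely from member to member.

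Tagln, the actin-binding protein transgelin, was at 792 against 156 CPM in GA (log2 ratio 2.35, 2.26 to 2.44) and at 830 against 310 CPM in control (1.42, 1.38 to 1.47). Cnn1, calponin of smooth muscle, was at 30.8 against 5.03 CPM in GA and 39.8 against 11.0 CPM in control and was found in 27.5% and 42.6% of members. Tpm1, a tropomyosin, had log2 ratios of 1.13 in GA and 0.70 in control, and Cald1, caldesmon, had 0.38 and 0.28, so neither was past 2-fold in both. The ratios of these genes were larger in GA than in control, while the summed levels in the members were close in both libraries and those in the Scx-zero cells were lower in GA. High levels were also not limited to the members: GA Eln cells held 1126 CPM of Acta2 and 821 CPM of Tagln, and control dividing cells held 1246 CPM of Acta2.

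Cells were also grouped by their count of Scx, which the rule used, so the steps are a description. From Scx-zero cells through cells with 1 UMI and with 2 to 4 UMIs to cells with 5 or more UMIs, Acta2 was at 487, 1029, 1305 and 2692 CPM in GA. The same steps gave 710, 1119, 1565 and 2134 CPM in control. Tagln was at 156, 409, 622 and 1011 CPM in GA and at 310, 425, 636 and 995 CPM in control. Mgp, the matrix Gla protein, was lower at each step in GA, with 1969, 1783, 1167 and 548 CPM, and at each of the first 3 steps in control, with 2710, 1239, 636 and 660 CPM. Clec11a had no such order, with 141, 210, 255 and 200 CPM in GA and 152, 204, 160 and 177 CPM in control. The cells of the 4 steps numbered 215, 38, 30 and 21 in GA and 464, 87, 100 and 102 in control. Their median depth also went up with Scx, from 46404 to 61972 UMIs in GA and from 42557.5 to 63056 UMIs in control, and its part in these orders was not tested.

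**Figure D3:**
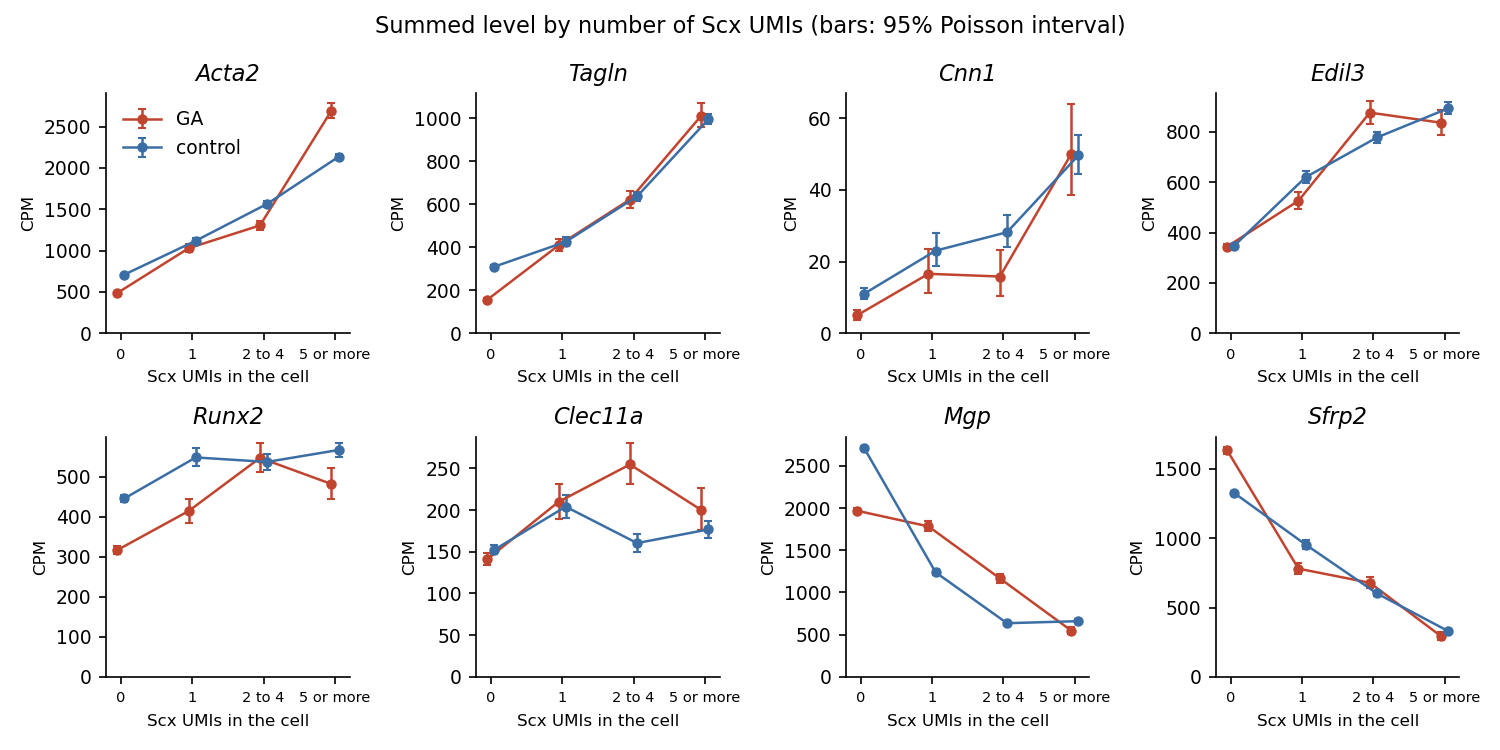
Summed CPM (vertical axes, linear from 0) of 8 genes in cells with 0, 1, 2 to 4 and 5 or more UMIs of Scx (horizontal axis) in the GA and control libraries, with exact 95% intervals for counting error. Acta2 and Tagln climb at every step in both libraries, while Mgp and Sfrp2 are highest in the cells with no UMI of Scx.

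The sequence upstream of Myl9, which encodes a myosin regulatory light chain, is shown because it was the window of the contractile genes that held a CArG box, the element bound by serum response factor. Myl9 was at 298 against 90.6 CPM in GA and 350 against 135 CPM in control. The sequence is from RefSeq on GRCm38.p6, chr2:156775214-156775419 on the plus strand, the 206 bases before the annotated starts, written 5′ to 3′ with the CArG box in capitals:
Myl9: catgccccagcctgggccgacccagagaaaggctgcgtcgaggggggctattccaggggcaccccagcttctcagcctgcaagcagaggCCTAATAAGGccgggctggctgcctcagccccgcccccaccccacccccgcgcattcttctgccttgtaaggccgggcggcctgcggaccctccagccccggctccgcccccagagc
The box starts 117 bases before the end of this stretch. Searched on both strands in the 250 bases before each start, the CArG box was in 482 of 32851 windows (1.47%) and in 1 of the 8 windows of the 7 contractile genes that matched. The E-box CAGCTG, a letter pattern of the kind read by basic helix-loop-helix factors, was in 13.0% of all windows and in 3 of those 8 (Lmod1, Tpm2 and Acta2). These matches describe letters in a window and say nothing of binding.

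The 12 genes with the highest ratios over Scx-zero cells, by the smaller ratio of the 2 libraries, were Cnn1 of the contractile list and Cxcr6, Pgam2, Adamts16, Runx3, Cdkn2a, Aqp5, Galnt3, Nt5e, Grem1, Grb14 and Podnl1. Cxcr6, the receptor for the chemokine Cxcl16 and best known from T cells, was at 11.3 against 0.10 CPM in GA and 11.1 against 1.72 CPM in control. It was found in 19.6% of GA and 20.3% of control members, and its GA ratio rests on a single UMI among the Scx-zero cells (log2 6.87, 4.29 to 12.2). Adamts16, a secreted metalloproteinase, was at 62.7 against 8.42 CPM in GA and 46.4 against 10.7 CPM in control and was found in 56.9% and 55.9% of members. Runx3, a transcription factor of the Runx family, was found in 70.6% and 66.3% of members and in 18.1% and 17.5% of Scx-zero cells. Cdkn2a, a cell cycle inhibitor locus at chr4:89274471-89294653, was at 77.4 against 14.5 CPM in GA and 52.7 against 14.6 CPM in control. Its log2 ratios were 2.41 (2.11 to 2.72) and 1.85 (1.66 to 2.05). Ccnd1, cyclin D1, was higher as well, with log2 ratios of 1.19 and 1.04.

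Grem1, an antagonist of bone morphogenetic proteins (BMPs), was at 27.7 against 6.87 CPM in GA and 21.2 against 6.73 CPM in control. Bmp2, a ligand that the antagonist binds, was at 47.3 against 14.1 CPM and 45.0 against 18.5 CPM. On the BMP list of ligands, receptors, antagonists and targets, these were the 2 past 2-fold higher of 21 tested, and Gdf10 and Id1 were past 2-fold lower. In both libraries 4 of the 21 were above 0 and 14 below, with medians of -0.16 in GA and -0.44 in control. Nt5e, the ectonucleotidase CD73 used as a surface marker of mesenchymal stromal cells, was at 43.8 against 13.1 CPM and 35.4 against 8.41 CPM. Aqp5, a water channel, was at 52.4 against 14.8 CPM and 52.3 against 11.8 CPM. Grem1 was found in 29.4% of GA and 34.2% of control members and Bmp2 in 51.0% and 49.5%, so part of the members carried these levels.

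Of the 40 genes that the study listed for its Multilineage progenitor cluster, all reached 200 UMIs, 37 were above 0 in both libraries and 5 (Edil3, Spon1, Megf6, Tnfrsf19 and Bcl11b) were past 2-fold higher. The list medians were 0.76 in GA and 0.63 in control, and none was past 2-fold lower. The study chose this list on these samples, so it is not independent evidence of its direction. Edil3, a secreted integrin ligand, was at 859 against 344 CPM in GA and 840 against 348 CPM in control. It was found in every member of both libraries and in 86.0% of GA and 90.3% of control Scx-zero cells. Bcl11b, a zinc finger transcription factor, was found in 66.7% of GA and 62.4% of control members against 30.2% and 25.6% of Scx-zero cells.

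On the tendon and ligament list, apart from Scx itself, 15 genes reached 200 UMIs, none was past 2-fold higher in both libraries and Col14a1, a fibril-associated collagen, was past 2-fold lower. The list medians were 0.03 and -0.16, with 7 genes above 0 and 7 below 0 in both libraries. Tnmd had log2 ratios of 0.15 (-0.04 to 0.34) in GA and 0.42 (0.33 to 0.52) in control. Mkx, mohawk, a homeobox factor of tendon, had log2 ratios of 0.84 in GA and -0.81 in control, opposite in sign. The tendon genes thus went both ways against cells without Scx.

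Cartilage genes gave a mixed picture. Of 9 tested, Acan, which encodes the proteoglycan aggrecan, was past 2-fold higher and Prg4, lubricin, past 2-fold lower. Acan was at 123 against 24.0 CPM in GA (log2 ratio 2.36, 2.12 to 2.60) and 91.0 against 35.6 CPM in control (1.35, 1.22 to 1.49). Sox9, the factor that starts the cartilage program, had ratios of 0.89 and 0.17, and its partner Sox6 had 0.83 and 1.06. Sox5, the other partner, was lower at -0.84 and -0.71. After thinning every cell to 10000 UMIs, Col2a1, the main collagen of cartilage, was found in 0 of 51 GA and 0 of 202 control members. The exact upper limits on the share of cells with a UMI at that depth were 6.98% and 1.81%. Before thinning it had 1 UMI in the members of each library, that is, in 1 of 51 and 1 of 202 cells, with exact upper limits of 10.4% and 2.73%.

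Of 15 osteogenic genes that precede Bglap, 10 were above 0 in both libraries and Tnfrsf19, a receptor of the tumour necrosis factor family, was past 2-fold higher. Runx2 had log2 ratios of 0.71 (0.62 to 0.80) in GA and 0.31 (0.27 to 0.36) in control. Dmp1, a matrix protein of osteocytes, was at 0.3 CPM in the members of both libraries and was past 2-fold lower. Of 8 adipogenic genes none was past 2-fold higher, and Zfp423 and Ebf2, early factors of that lineage, were past 2-fold lower. Adipoq, the adipocyte hormone adiponectin, was at 0 UMIs in the members of both libraries.

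Detection of lineage factors in the same cell was compared at equal depth, with each cell thinned to 10000 UMIs. Macrophages were measured in the same way; they should lack Sox9 and Sp7, but many of them held Runx2, so they give no background for that gene. Runx2 was found in 90.2% of GA members (78.6 to 96.7) and 92.1% of control members (87.5 to 95.4). It was found in 74.3% and 80.4% of Scx-zero cells and in 25.3% and 26.8% of macrophages. Sox9 was found in 54.9% and 54.5% of members, 39.5% and 47.2% of Scx-zero cells and 0.7% and 1.4% of macrophages. Both were found together in 47.1% of GA members (32.9 to 61.5) and 50% of control members (42.9 to 57.1), against 32.4% (26.1 to 39.2) and 39.7% (35.2 to 44.4) of Scx-zero cells and 0.4% and 0.5% of macrophages. Runx2 with Acta2 was found together in 78.4% and 85.1% of members, against 43.3% and 47.5% of Scx-zero cells. Transcripts of a bone factor and a cartilage factor thus occurred in the same cell in a large part of the members of both libraries. The shares in Scx-zero cells were lower at this depth, but their intervals overlap those of the members. Thinned to 20000 UMIs, both factors were found in 66.0% of GA members (51.2 to 78.8) and 43.8% of GA Scx-zero cells (36.8 to 50.9), which do not overlap, and in 65.3% of control members (58.3 to 71.9) and 55.9% of control Scx-zero cells (51.1 to 60.7), which do.

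Sp7 was found in 7.8% of GA and 5.4% of control members at 10000 UMIs, close to the 6.7% and 5.1% of Scx-zero cells. At 20000 UMIs it was found in 12.0% of GA members (4.53 to 24.3) against 7.46% of Scx-zero cells (4.24 to 12.0), and in 12.9% of control members (8.58 to 18.3) against 5.57% (3.60 to 8.17), without overlap in control. Runx2, Sox9 and Sp7 were found together in 2.0% and 3.5% of members and 3.3% and 3.5% of Scx-zero cells at 10000 UMIs, and in 4.0% and 9.9% of members and 4.5% and 4.2% of Scx-zero cells at 20000 UMIs. Pparg, the factor of fat cells that macrophages also use, was found in 7.8% and 4.0% of members at 10000 UMIs. The shares were 4.3% and 4.9% in Scx-zero cells and 19.5% and 21.3% in macrophages. Because macrophages use it, they give no background level for Pparg. Before thinning, 0 GA and 0 control members were below 10000 UMIs, while 5 and 11 Scx-zero cells and 58 and 117 macrophages were left out.

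**Figure D4:**
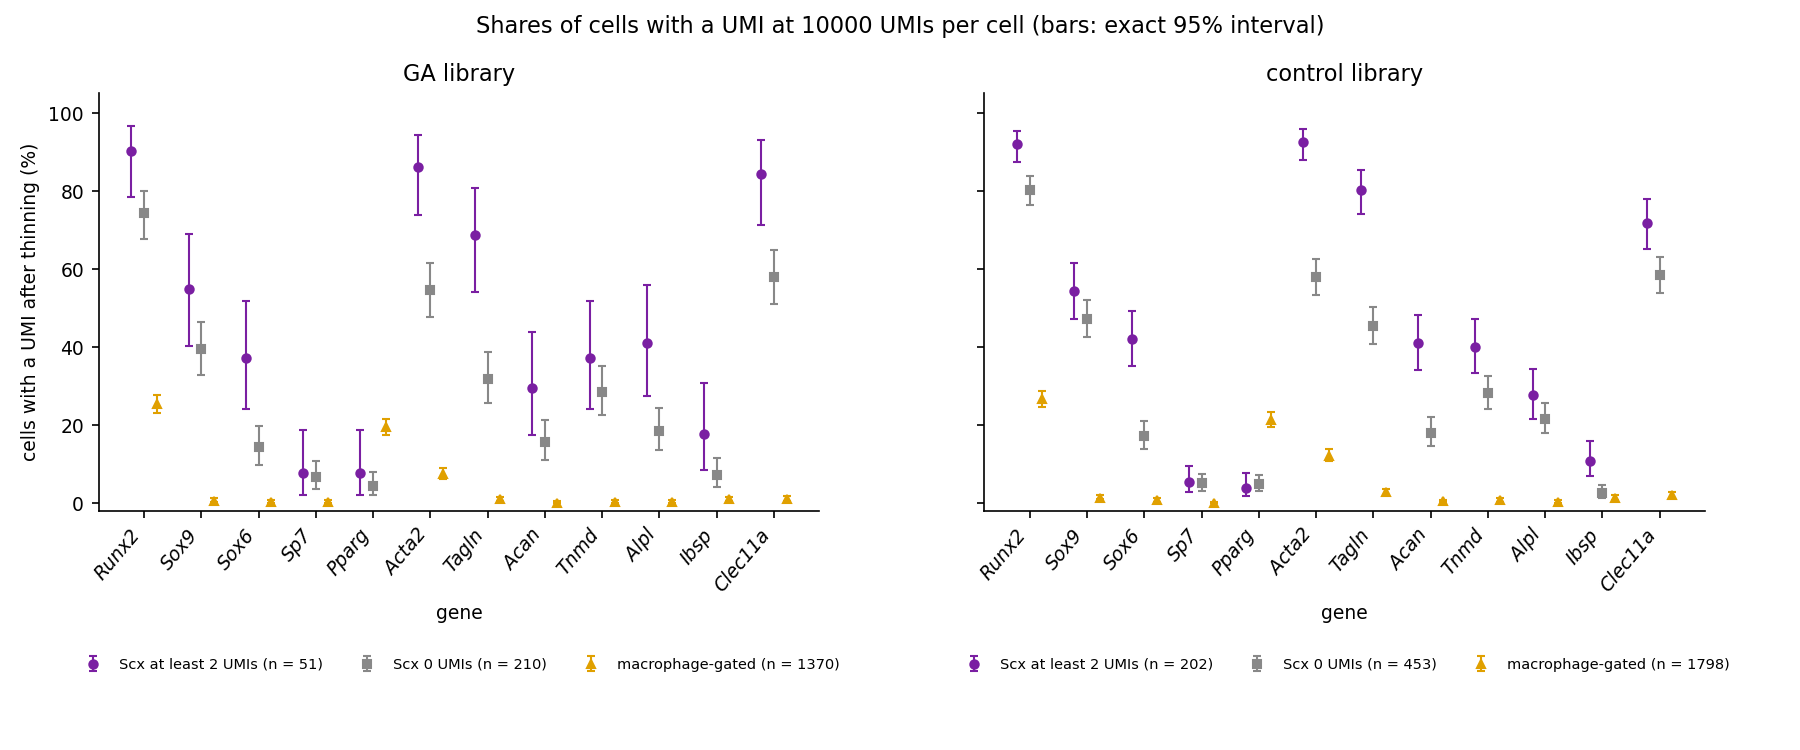
Share of cells in percent (vertical axis) with at least 1 UMI of each of 12 genes (horizontal axis) after thinning to 10000 UMIs, for members, Scx-zero cells and macrophages of each library, with exact 95% intervals. Runx2 and Acta2 are found in over 80% of members of both libraries, Sp7 and Pparg in under 10%.

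A few members held clear counts of Sp7, and this split was chosen after its values were seen. With at least 2 UMIs of Sp7 there were 6 GA and 21 control members, and 37 and 158 had none. In control, Ibsp, the mineral-binding bone sialoprotein, stood at 2064 CPM in members with Sp7 and at 16.1 CPM in those without. In GA the values were 166 and 107 CPM. Ibsp was found in only 14.9% of control and 17.6% of GA members. Its highest control member held 23262 CPM, so a few cells can set these values. Tagln was lower in the members with Sp7, at 388 against 947 CPM in GA and 475 against 903 CPM in control, and so was Tnmd, at 58.1 against 121 CPM and 34.1 against 149 CPM. Tagln and Tnmd were thus lower in the members with Sp7 in both libraries, on only 6 GA cells.

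Matrix genes were described by family. Of the 7 fibrillar collagens tested outside the rule, none was past 2-fold in both libraries. Of 14 fibril-associated and beaded collagens, Col6a5, Col6a6 and Col14a1 were past 2-fold lower and none higher. Col11a1, a minor fibrillar collagen of cartilage that also starts fibrils in tendon, came near, with 829 against 279 CPM in GA (log2 ratio 1.57) and 714 against 361 CPM in control (0.98). Of 20 matricellular proteins, Edil3 and Spon1, an F-spondin of the matrix, were past 2-fold higher and Tnxb and Ccn3 past 2-fold lower, and the medians were 0.10 in both libraries. Postn, periostin, the matricellular protein of periosteum and wounds, was at 2007 against 1621 CPM in GA and 2193 against 1628 CPM in control. Lrrc15, a membrane protein induced by TGF-beta in fibroblasts, had log2 ratios of 0.80 and 1.06.

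Of 10 proteoglycans tested, Epyc was past 2-fold lower and none higher. Fmod, fibromodulin, which shapes collagen fibrils in tendon, was at 626 against 232 CPM in GA and 400 against 256 CPM in control, with log2 ratios of 1.43 and 0.64. Dcn, decorin, was below 0 in both, at -0.53 and -0.61. Of 13 TGF-beta ligands, receptors and activators, Lrrc32, which holds latent TGF-beta at the cell surface, was past 2-fold lower and none higher, and of 11 TGF-beta target genes none was past 2-fold in either direction. Of 12 elastic fibre genes, Efemp1, Mfap2 and Mfap5 were past 2-fold lower and none higher. Immediate early genes, which tissue digestion can induce, were below 0 in both libraries for 14 of 19 tested, with medians of -0.42 and -0.22 and none past 2-fold. Of the 11 TGF-beta target genes, 5 were above 0 and 2 below 0 in both libraries, with medians of 0.22 in GA and 0.03 in control. A link between TGF-beta and the contractile genes was not tested.

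More of the genes tested were past 2-fold lower than higher in the members. The Scx-zero cells held more UMIs in total, with 10336806 against 2920640 in GA and 21535812 against 12192451 in control. Genes high in Scx-zero cells thus reached the minimum of UMIs per gene more easily than genes high in members. The part of that minimum in this imbalance was not tested. Dural and meningeal fibroblast genes were among the lower genes, with 7 of 12 tested past 2-fold lower and none past 2-fold higher. Their list medians were -1.12 in GA and -2.02 in control. Foxc2 and Foxd1, forkhead factors of the meninges, had log2 ratios of -2.90 (-5.99 to -0.98) and -1.95 (-2.55 to -1.40) in GA and of -2.19 (-2.94 to -1.51) and -2.93 (-3.27 to -2.61) in control. Foxd1 was at 9.93 against 38.3 CPM in GA and 6.81 against 51.9 CPM in control. Mgp was at 896 against 1969 CPM and at 649 against 2710 CPM, and Eln cells held 10025 and 10299 CPM of it. Nr2f2, Alcam, Tbx18 and Gjb2 made up the 7. The rule itself limited Eln, but it did so equally in the Scx-zero cells.

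Among the 12 lowest genes were Slc4a10, Itih5, Crispld1, Cldn11, Palmd, Mmp3, Steap4, Ace, Opcml, Abcb1a and Gsta4. Slc4a10, a bicarbonate transporter, had 0 UMIs in the GA members against 73.9 CPM in GA Scx-zero cells, and 1.31 against 59.8 CPM in control. Itih5, a hyaluronan-associated matrix protein, was at 0.68 against 30.1 CPM in GA and 0.66 against 56.7 CPM in control. Mmp3, the metalloproteinase stromelysin, was at 6.51 against 93.1 CPM and 1.97 against 134 CPM. Ace, angiotensin-converting enzyme, was at 1.71 against 24.6 CPM and 1.89 against 22.9 CPM. Cldn11, a tight junction claudin, and Palmd had 0 UMIs in the GA members. With those zeros set to a floor of 3 UMIs over the group, the GA log2 ratios were at most -6.17 for Slc4a10, -4.15 for Cldn11 and -4.04 for Palmd. These genes were found in fewer than 1 in 10 of the members of either library.

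Of 8 stem-like mesenchymal genes, Ly6a, Dpp4, Clec3b and Ace were past 2-fold lower and Nt5e past 2-fold higher, with list medians of -1.39 and -1.56. Another 3 genes of that list belong to the rule and were not counted. Of the genes that the study listed for its Stem 2 cluster, 27 of 38 tested were past 2-fold lower, and of those for its Fibroblastic progenitor cluster 15 of 39. For its Stem 1 cluster 0 of 40 were past 2-fold in both libraries, and for its Osteoblast cluster 4 of 30 were lower. The study chose these cluster lists on these samples too, so the counts are a description and not independent evidence. On the Wnt list, 6 of 20 were past 2-fold lower, among them the antagonists Sfrp1, Sfrp2, Sfrp4, Dkk2 and Wif1 and the ligand Wnt2, and none was past 2-fold higher. In both libraries 9 of the 20 were above 0 and 11 below, with medians of -0.24 and -0.40. Sfrp2 was at 510 against 1636 CPM in GA and 455 against 1327 CPM in control. On the insulin-like growth factor list, 4 of 11 (Igf1, Igf2, Igfbp5 and Igfbp6) were past 2-fold lower. Of 17 chemokines and cytokines, 6 (Cxcl5, Cxcl12, Cxcl14, Ccl11, Il6 and Il11) were past 2-fold lower. Cxcl5, a ligand that draws neutrophils, was at 47.3 against 371 CPM in GA and 38.4 against 341 CPM in control. The type I interferon list was below 0 in both libraries for all 18 tested, with 6 past 2-fold lower and medians of -1.05 and -1.03. Compared with cells of the same gate that lacked Scx, the members thus held fewer transcripts of the ligands, ligand-binding proteins and cytokines named here, in both libraries.

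Genes of axon guidance and of the hedgehog pathway were compared next. Of 14 neurotrophin, axon guidance and neuropeptide receptor genes tested against Scx-zero cells, Sema3d, an axon guidance ligand, was past 2-fold higher and Ntrk2, Ntrk3, Slit3 and Ramp2 past 2-fold lower. Of 10 hedgehog genes, Gas1, a surface co-receptor, was past 2-fold lower and none higher. Gli3, the abundant Gli factor, was at 109 CPM in GA and 104 CPM in control members. Gli1, a target that reports the pathway, was found in 0% of GA members (0 to 6.98) and 3.96% of control members (1.73 to 7.65). In Scx-zero cells it was found in 9.30% (5.78 to 14.0) and 10.3% (7.73 to 13.5). It had 0 UMIs in GA members, which allows up to 1.03 CPM, and 0.98 CPM in control members. No difference between GA and control members was thus detectable at this depth. Ptch1, the receptor and also a target, was at 20.5 against 7.71 CPM, a log2 ratio of 1.41 (0.92 to 1.90), but 80.0% of its GA UMIs came from 5 cells and without the 10% of cells with most of it the ratio was 0.48. Ptch1 was under 200 UMIs, and of the 9 hedgehog genes that reached this minimum none was past 2-fold between GA and control members.

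Between GA and control members, 7219 genes had at least 200 UMIs. Past 2-fold, 61 were higher in GA (0.845%) and 50 were lower (0.693%). Of the same genes, 23 (0.319%) were higher and 31 (0.429%) lower in the Scx-zero cells. The members were fewer, with 51 GA and 202 control cells against 215 and 464 Scx-zero cells. The part of cell number in these counts was not tested, so they do not rank the 2 classes. Over all 7219 genes, the log2 ratio of GA over control had a median of -0.04 in members and -0.00 in Scx-zero cells. Of the 61 genes, 42 drew at least 50% of their GA UMIs from 5 cells, and 46 were still past 2-fold when the 10% of member cells with most UMIs of the gene were left out of each library. Of the 50 lower genes, 6 drew at least 50% of their control UMIs from 5 cells, and 40 were still past 2-fold. Most of these genes thus stayed past 2-fold without the top cells. Because those cells were left out of both libraries, this does not show that a difference is spread over many cells. The GA levels of many genes were concentrated in few cells. Several genes described above had small log2 ratios of GA over control, with 0.03 for Acta2, -0.07 for Tagln, -0.09 for Runx2, 0.08 for Sox9 and 0.45 for Clec11a. Pgam2, the second highest gene against Scx-zero cells, was past 2-fold higher in GA members at 1.33 (1.09 to 1.57). Scx itself had a ratio of -0.37.

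Higher in GA were Ccl8, Rarres2, Slpi, Ccn5, Dok6, Ly6a, Igf2, Ptx3, Sclt1, Oasl2, Mmp13 and Serping1, the 12 with the highest ratios. Igf2 drew 98.2% of its GA UMIs from 5 cells, and its log2 ratio was -0.81 with at least 3 UMIs of Scx. Ccn5, a matricellular protein of the CCN family, was at 202 against 44.0 CPM and was found in 80.4% of GA and 44.1% of control members. Its log2 ratio was 2.20 (2.03 to 2.37), and 2.83 without the top cells. In Scx-zero cells it was 1.31. Ly6a had 1.86 (1.68 to 2.03), 2.03 without the top cells and 1.59 in Scx-zero cells, so these genes were past 2-fold higher in GA in both classes. Mmp13, the collagenase that opens bone and cartilage matrix, was at 874 against 288 CPM (log2 ratio 1.60, 1.53 to 1.67) and was lower in GA in Scx-zero cells (-0.54). It was found in 60.8% and 59.4% of members, and 66.4% of its GA UMIs came from 5 cells, with a ratio of 1.46 without the top cells. Slpi, a secreted protease inhibitor, had 2.45 (2.21 to 2.70) and was found in 62.7% and 29.2% of members. Ccl8, a chemokine, had the highest ratio of the 12, but it was found in 13.7% of GA members, 99.2% of its UMIs came from 5 cells and its ratio was -0.70 without the top cells.

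Of the interferon-stimulated genes, 5 of 10 tested were past 2-fold higher in GA members (Isg15, Ifi27l2a, Oasl2, Bst2 and Zbp1), with 8 above 0, 2 below 0, none past 2-fold lower and a median of 1.01. The Scx-zero cells had a median of 0.88 with 3 of these past 2-fold. Isg15, a ubiquitin-like protein induced by interferon, was at 112 against 46.4 CPM, a log2 ratio of 1.27 (1.06 to 1.46), and was found in 64.7% and 37.6% of members. Of the neutrophil genes outside the rule, Camp and Ngp reached 200 UMIs, and both were past 2-fold higher in GA members at 1.22 and 1.44. The 12 neutrophil markers, of which none was at 0, include S100a8 and S100a9, which the rule limited, so their sum is a description only. It was 479 CPM in GA and 155 CPM in control members, and 575 and 185 CPM in Scx-zero cells. The most abundant of the 12 was S100a9, at 213 against 64.6 CPM. The part of neutrophil RNA in the GA differences was not tested.

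Lower in GA were Lancl3, Dgki, Hs6st3, Pfkfb3, Msmo1, Ibsp, Dnah12, Myo16, Fdft1, Fdps, Tnfrsf11b and Tmem100. Of these, Dnah12 turned to 2.09 without the top cells and Myo16 to 0.019 when cells were thinned to 10000 UMIs. Msmo1, Fdft1 and Fdps encode enzymes of sterol synthesis, and a list of 21 sterol synthesis and uptake genes was drawn up after they were seen. Of 16 that reached 200 UMIs, 6 (Idi1, Fdps, Fdft1, Sqle, Cyp51 and Msmo1) were past 2-fold lower, 15 were below 0 and the median was -0.72, against 0.07 in Scx-zero cells. Without the 3 genes that prompted the list, 3 of 13 were past 2-fold lower, 12 were below 0 and the median was -0.63, against 0.04 in Scx-zero cells. Fdps, farnesyl diphosphate synthase, was at 28.1 against 88.1 CPM (log2 ratio -1.65, -1.99 to -1.33) and had -1.63 without the top cells and 0.17 in Scx-zero cells. The summed level of the list was 334 CPM in GA and 578 CPM in control members.

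Pfkfb3, which makes an activator of glycolysis, was at 17.1 against 71.9 CPM (log2 ratio -2.07, -2.51 to -1.66) and was found in 43.1% and 73.3% of members. All 17 hypoxia and glycolysis genes tested were below 0, with a median of -0.50 and 1 past 2-fold lower (Bnip3, a mitochondrial protein induced by low oxygen, at -1.45), against a median of 0.22 in Scx-zero cells. Tnfrsf11b, osteoprotegerin, the decoy that restrains osteoclast formation, was at 12.0 against 36.3 CPM (-1.60, -2.14 to -1.10) and had a ratio of 0.01 in Scx-zero cells. Ibsp was at 125 against 502 CPM, but it was found in 17.6% of GA and 14.9% of control members, 66.3% of its control UMIs came from 5 cells and its ratio turned to 2.53 without the top cells. None of these differences between conditions has a replicate.

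**Figure D5:**
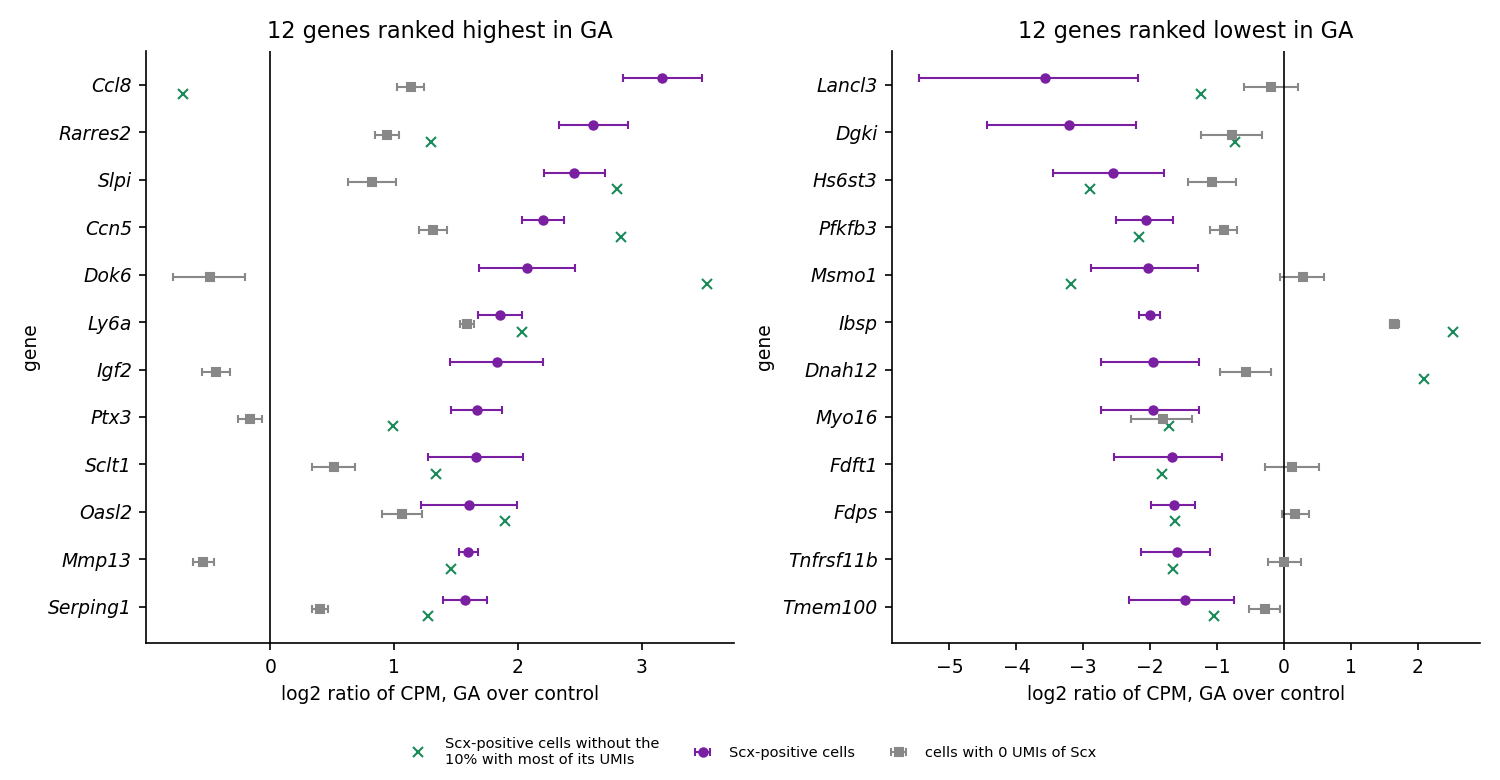
Log2 ratio of GA over control (horizontal axis) for the 12 highest and 12 lowest genes in members (purple, with exact 95% intervals for counting error), in Scx-zero cells (grey) and in members without the 10% of cells of each library with most UMIs of the gene (green crosses; Igf2 has none). Ccn5 and Ly6a keep ratios above 1 in each, while Ccl8, Ibsp and Dnah12 change sign without the top cells.

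Markers of other cell types were summed over each list in the members. The 12 macrophage markers summed to 79.4 CPM in GA and 86.5 CPM in control members, with Lyz2 the most abundant and none at 0. The rule limited 2 of the 12, so the selection set part of this sum. The 8 endothelial markers summed to 5.82 and 10.1 CPM, led by Pecam1, and the defining markers Cdh5, Emcn and Cldn5 were at 0 in GA. The 8 Schwann and neural markers summed to 322 and 312 CPM, above the 235 and 202 CPM of Scx-zero cells. Nearly all of this was Ncam1, a cell adhesion molecule that mesenchymal cells can also carry, at 303 and 294 CPM and found in every member, while the defining markers Sox10 and Ngfr were at 0 in both libraries. Keratinocyte markers summed to 26.7 and 20.6 CPM with Krt5 and Krt14 at 0 in both, skeletal muscle markers to 6.5 and 7.5 CPM, and erythroid markers to 13.7 and 11.2 CPM.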

How the data were processed

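For both 10x Genomics libraries the authors deposited raw counts, UMIs by gene and barcode, without normalization. Cell Ranger 7.0.1 is given by the file headers and mm10 by the labels. The GA matrix held 9322 barcodes and 182949385 UMIs and the control matrix 8718 barcodes and 214993030 UMIs, and 23 barcode sequences occurred in both.

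Barcodes with 500 to 140000 UMIs, 200 to 9500 genes and up to 15% mitochondrial UMIs were kept, 9036 in GA and 8093 in control, with medians of 11267 and 17499 UMIs. Members were then selected on the limits given above. Members, lists and named genes were chosen with earlier results of these data known. UMIs of all cells in a gate were added up and scaled to their total (CPM), and ratios were given with exact conditional binomial intervals. With 1 library per condition, no test was run. Named genes were the 12 highest and 12 lowest of each comparison among genes with at least 200 UMIs that were found in at least 10% of the cells on their higher side, without predicted gene models, and up to 4 genes per list together with those past 2-fold. A count of 0 was set to a floor of 3 UMIs for a ratio. Counts were drawn without replacement to thin cells to 10000 UMIs. Scrublet in scanpy 1.11.5 marked 0 GA and 32 control barcodes (0.367%) and so had not worked. Doublets were kept, and removal of the 695 and 608 barcodes of highest score was an alternative. Other alternatives were the Scx threshold, a 10% mitochondrial limit, 0 UMIs of immune genes, thinning, the mean of per-cell CPM, a minimum of 50 UMIs and centring on the median. Leaving out the top cells and the sterol list were chosen after seeing the data. Python 3.11.15, NumPy 2.4.6 and SciPy 1.17.1 were used, and the code was tested on simulated data. Gene positions are from the mm10 annotation (GENCODE). A few genes that the rules would name are not reported here.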

Additional observations from a re-analysis of the deposited data

Results flagged for a closer look

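In 3 genes the difference between GA and control was past 2-fold in opposite directions in the members and in the Scx-zero cells, and whether these differences differ was not tested, since each condition had 1 library. Ibsp had a log2 ratio of GA over control of -2.01 (-2.16 to -1.85, 365 against 6126 UMIs) in the members and of 1.65 (1.58 to 1.71) in Scx-zero cells. Of its control UMIs 66.3% came from 5 cells, and without the 10% of member cells with most of them the ratio in the members was 2.53. Ibsp was found in 17.6% of GA and 14.9% of control members, so few cells with it are left behind that value. In Scx-zero cells, where no cells were left out, it was found in 12.1% of GA and 5.60% of control cells. Pgam2, the muscle form of phosphoglycerate mutase, had 1.33 (1.09 to 1.57, 233 against 387 UMIs) in the members and -1.48 (-2.24 to -0.78) in Scx-zero cells. The latter value rests on 20 against 116 UMIs, found in 3.72% of GA and 9.27% of control Scx-zero cells. Adra2a, an adrenergic receptor that was named after its values were seen, had 1.19 (0.77 to 1.61, 75 against 137 UMIs) in the members. In Scx-zero cells it had -1.27 (-1.64 to -0.91, 75 against 376 UMIs).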

How the results depend on the processing

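The GA share of members was below the control share under every alternative run, with ratios from 0.175 to 0.320 among kept cells, from 0.397 to 0.626 in the mesenchymal gate and from 0.483 to 0.763 among similar cells. The 0.320 was for cells thinned to 10000 UMIs and called on at least 1 UMI of Scx. It covers the 4876 GA and 5164 control cells that could be thinned, not all kept cells. Counts of genes past 2-fold moved with depth and with the minimum. Higher than in Scx-zero cells were 33 genes after thinning and 129 with a minimum of 50 UMIs, and lower were 206 and 643. Higher in GA were 11 and 219 genes, and lower were 8 and 201. Fewer genes reach the minimum after thinning, and more with a lower one. Runx2 and Sox9 were found together in 82.4% of GA and 75.7% of control members without thinning, and in 66.0% and 65.3% when thinned to 20000 UMIs. The 67 values of single genes and lists had 499 alternative values in all. Of these 499, 127 moved beyond the counting interval (for list medians, by over 0.3) and 6 reversed. Ccl8 had -1.79 with at least 3 UMIs of Scx and -0.70 without the top cells, Igf2 -0.81 with at least 3 UMIs of Scx, Dnah12 2.09 and Ibsp 2.53 without the top cells, and Myo16 0.019 after thinning. The cause was not tested. No paired analysis was possible because each condition had 1 library. With 51 GA members, 5 cells can set a gene's level, and no interval covers the spread between mice.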
